A study of Mus musculus with 2 samples.

Results

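Odc1, Sms, Amd1, Azin1, Oaz1 and Oaz2, 6 of the 32285 genes counted, were followed in barcodes that carry muscle fibre transcripts and in the other barcodes of the same libraries. The 6 genes were chosen by their measured values in these libraries, so what follows describes them and tests nothing. Barcodes with at least 500 genes and at most 10% of unique molecular identifiers (UMIs) from mitochondrial genes were kept. This left 516 barcodes in the library of quiescent satellite cells (QSCs) and 1468 in that of activated satellite cells (ASCs). These names are the labels of the libraries and not the cell type of each barcode. A barcode was called fibre-derived when at least 5% of its UMIs came from Myf6, Myh4, Acta1, Ckm, Mylpf, Tnnt3, Tnnc2, Myh1, Pvalb and Atp2a1, genes of muscle fibres. This held for 104 QSC and 939 ASC barcodes, against 412 and 529 other barcodes.

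Satellite cells are the resident stem cells of skeletal muscle. All mice were 8 weeks old and carried Pax7 CreERT2/+ with Rosa26 mTmG/+, alleles in which Cre under control of the satellite cell gene Pax7 switches a membrane reporter in Pax7-expressing cells. QSCs were sorted from uninjured tibialis anterior muscle, and ASCs from the same muscle 1.5 days after cardiotoxin (CTX), a toxin that kills fibres. Each group had 1 library of cells pooled from several mice, so library and injury cannot be told apart, and every interval below is a 95% interval of counting error only.

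Polyamines are small, positively charged molecules made from ornithine, and growing and regenerating cells need them. Ornithine decarboxylase (Odc1) makes putrescine, S-adenosylmethionine decarboxylase (Amd1) supplies the aminopropyl groups, and spermine synthase (Sms) makes spermine from spermidine. Antizymes (Oaz1, Oaz2) bind ornithine decarboxylase and send it to the proteasome, and the antizyme inhibitor (Azin1), an inactive relative of the enzyme, takes antizymes away from it.

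Antizymes are themselves set by polyamines, because the ribosome must slip forward by a single base at an internal stop codon to make the whole protein, and polyamines favour the slip. The site of the slip is shown because it is the known regulatory element of these transcripts, with the slip codon and the stop codon, TCCTGA, in capitals. In GENCODE M21, 2 of 7 Oaz1 and 3 of 7 Oaz2 transcripts hold it. It is printed from bases 70 to 99 of Oaz1-205 and 269 to 298 of Oaz2-207, and 28 of the 30 bases are the same. Oaz1-205 is annotated as protein coding, but Oaz2-207 as a processed transcript.
Oaz1: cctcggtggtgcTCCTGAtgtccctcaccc
Oaz2: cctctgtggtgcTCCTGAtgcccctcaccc

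Transcript counts do not show whether the slip took place. The deposited tables count messenger RNA, and enzyme activity, antizyme protein and polyamines were not measured in them.

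In the GENCODE M21 annotation of GRCm38, Odc1 (ENSMUSG00000011179) lies on chromosome 12 from 17544794 to 17551505 and hosts a small nucleolar RNA gene. Sms (ENSMUSG00000071708) lies on chromosome X from 157443855 to 157492287, and Amd1 (ENSMUSG00000075232) on chromosome 10 from 40287458 to 40302186. Azin1 (ENSMUSG00000037458) lies on chromosome 15 from 38487427 to 38519266 and overlaps a counted gene on the opposite strand, Gm49077. That overlap makes its reads less certain only if strands were not kept apart in counting. Oaz1 (ENSMUSG00000035242) lies on chromosome 10 from 80826656 to 80829290, and Oaz2 (ENSMUSG00000040652) on chromosome 9 from 65668001 to 65690300. Amd1 has a near copy, Amd2. The last 600 bases of their transcripts are 97.7% identical, so 3' reads of Amd1 are uncertain.

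The fibre label was checked against marker genes. In fibre barcodes the 10 rule genes took 16.9% (QSCs) and 13.5% (ASCs) of UMIs, where the other barcodes had 1.59% and 1.79%. The rule fixes that difference, but the remaining markers are not part of it. The 6 satellite cell markers (Pax7, Myf5, Vcam1, Cdh15, Chodl, Spry1) summed to 97.9 CPM (UMIs of a gene per 1000000 UMIs of its pool) in QSC fibre and 36.6 CPM in ASC fibre barcodes, against 2884 and 561 CPM in the others. Pax7 had 2 and 6 UMIs in the fibre pools, and Spry1 was at 0 in QSC fibre barcodes. The 11 immune markers summed to 139.9 and 321 CPM in fibre barcodes and to 1693 and 2160 CPM in the others. The 5 fibroblast markers summed to 79.3 and 13.6 CPM in fibre barcodes and to 2711 and 406.5 CPM in the others. Among the other barcodes, 180 of 412 (QSCs) and 415 of 529 (ASCs) had 3 or more UMIs of non-muscle markers, a minimum that deep barcodes reach more easily. By the summed markers the other class held RNA of several cell types in both libraries, and its make-up was not matched between them. How many of its barcodes are cells of other types was not determined, since 3 UMIs in a deep barcode can be background. The 5 nuclear-retained transcripts, led by Malat1, stood at 2336 and 591 CPM in fibre barcodes against 66166 and 7702 CPM in the others. ASC fibre barcodes also carried 500 UMIs of Myod1 and 406 of Myog, 2 factors of muscle differentiation. Both were lower there than in ASC other barcodes, with 166 against 376 CPM for Myod1 and 135 against 856 CPM for Myog. Whether a fibre barcode stands for a cell, a fibre fragment or free fibre RNA was not tested.

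Depth differed between the pools. Fibre barcodes had median depths of 1635 UMIs (QSCs) and 2672 UMIs (ASCs), and other barcodes 2216 and 7263. The summed UMIs were 214486 in QSC fibre, 947605 in QSC other, 3007059 in ASC fibre and 5888756 in ASC other barcodes. The QSC fibre pool is the shallowest, and 3 UMIs, the floor set here for a count of 0, correspond there to 14.0 CPM, where the exact Poisson interval of a gene at 0 UMIs such as Paox reaches 17.2 CPM. The libraries shared 4 barcodes, of which 2 were kept in both. In CPM from a 3' library each transcript counts once, so levels are compared here within a gene and not between genes.

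Odc1 differed mainly between the libraries. Its level was 60.6 CPM (interval 32.3 to 104, 13 UMIs) in QSC fibre, 64.4 CPM (49.2 to 82.7) in QSC other, 315 CPM (295 to 336, 947 UMIs) in ASC fibre and 275 CPM (262 to 289) in ASC other barcodes. Both ASC pools lay above both QSC pools, and the QSC intervals overlapped. The ASC level was 5.20-fold the QSC level in fibre barcodes (3.02 to 9.80) and 4.27-fold in the others (3.31 to 5.61).

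Between the classes, the log2 ratio of fibre over other barcodes for Odc1 was -0.09 (-1.07 to 0.79) in the QSC library and 0.20 (0.08 to 0.31) in the ASC library. Both values depended on the scaling or the barcodes counted. Relative to the median gene the QSC value was -1.15 (-2.14 to -0.27), a difference beyond counting error. The ASC value was -0.39 under the study's mitochondrial limit of 1%, which leaves 78 other barcodes, 0.0049 with a fibre limit of 10%, and 0.73 under TMM scaling.

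Sms, the last enzyme of the chain, differed between libraries and between classes. It stood at 154 CPM (106 to 216, 33 UMIs) in QSC fibre, 57.0 CPM (42.8 to 74.4) in QSC other, 282 CPM (263 to 301) in ASC fibre and 128 CPM (119 to 138) in ASC other barcodes. Fibre barcodes were the higher class in each library, and no interval of an ASC pool reached that of the same class in the QSC library. The fibre level was 2.70-fold the other level (1.70 to 4.24) in the QSC library and 2.19-fold (1.99 to 2.42) in the ASC library. Relative to the median gene the QSC log2 ratio was 0.37 (-0.30 to 1.02), which includes equality. The ASC level was 1.83-fold (1.29 to 2.68) and 2.25-fold (1.71 to 3.03) the QSC level in fibre and other barcodes.

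Amd1 was higher in the fibre class and lower in the ASC library within it. Its level was 196 CPM (141 to 265, 42 UMIs) in QSC fibre, 46.4 CPM (33.7 to 62.3) in QSC other, 122 CPM (110 to 135) in ASC fibre and 43.3 CPM (38.2 to 49.0) in ASC other barcodes. Fibre barcodes held 4.22-fold (2.70 to 6.59) and 2.81-fold (2.39 to 3.31) the other level in the QSC and ASC libraries. Relative to the median gene the QSC log2 ratio was 1.01 (0.36 to 1.65), below the unscaled ratio. The log2 ratio of ASC over QSC was -0.69 (-1.15 to -0.19) in fibre barcodes and -0.10 (-0.57 to 0.40) in the others. With the UMIs of Amd2 added, the fibre value was -0.99 (-1.37 to -0.58).

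Azin1 rested on the fewest counts in QSC fibre barcodes. It stood at 18.6 CPM (5.08 to 47.8, 4 UMIs) in QSC fibre, 88.6 CPM (70.7 to 110) in QSC other, 140 CPM (127 to 154) in ASC fibre and 79.8 CPM (72.8 to 87.4) in ASC other barcodes. QSC fibre barcodes were the lowest pool and ASC fibre barcodes the highest, while the other barcodes of the libraries overlapped. The ASC level was 7.53-fold the QSC level in fibre barcodes (2.92 to 27.8), and in the other barcodes the log2 ratio was -0.15 (-0.49 to 0.20). The log2 ratio of fibre over other barcodes was -2.25 (-4.16 to -0.84) in the QSC library and 0.81 (0.62 to 1.01) in the ASC library.

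Oaz1 differed little between the libraries. It stood at 1706 CPM (1536 to 1890) in QSC fibre, 1344 CPM (1272 to 1420) in QSC other, 1624 CPM (1579 to 1670) in ASC fibre and 1236 CPM (1207 to 1264) in ASC other barcodes. The log2 ratio of ASC over QSC was -0.07 (-0.23 to 0.09) in fibre barcodes, and -0.12 in the others, a sign that turns to 0.20 under TMM scaling. Fibre barcodes were higher in both libraries, by log2 ratios of 0.34 and 0.39. Relative to the median gene the QSC value was -0.72.

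Oaz2 was lower in the ASC library. It stood at 284 CPM (218 to 365) in QSC fibre, 151 CPM (127 to 178) in QSC other, 193 CPM (177 to 209) in ASC fibre and 82.0 CPM (74.9 to 89.7) in ASC other barcodes. The log2 ratio of ASC over QSC was -0.56 (-0.95 to -0.16) in fibre and -0.88 (-1.15 to -0.60) in other barcodes. Relative to the median gene the fibre value was -0.39 (-0.77 to 0.018), which includes equality. Fibre barcodes held 1.89-fold (1.37 to 2.56) the other level in the QSC library, a log2 ratio of 0.91 that turns to -0.15 relative to the median gene, and 2.35-fold (2.08 to 2.65) in the ASC library.

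**Figure D1:**
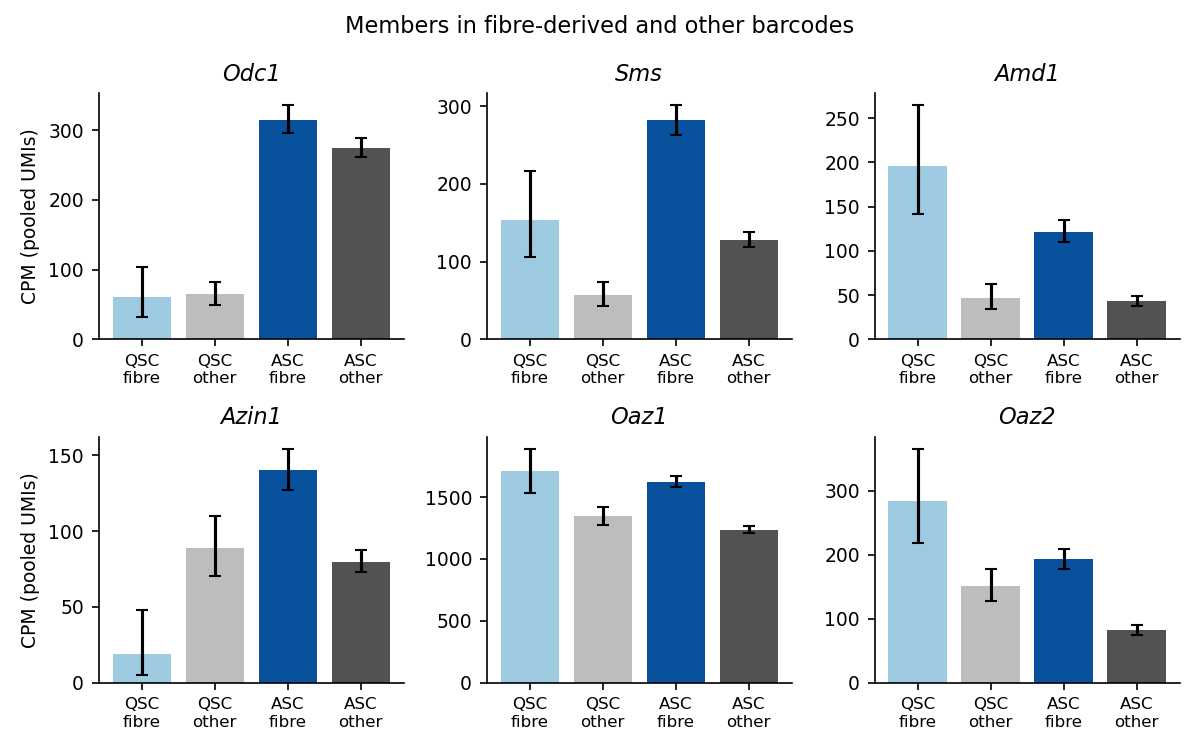
Level of each gene in CPM (linear axis from 0, 1 panel per gene with its own scale) in the 4 pools of barcodes. Bars are pooled levels of 1 library each and whiskers the exact Poisson 95% interval. Odc1 is high in both ASC pools (315 and 275 CPM), Amd1 and Oaz2 are high in both fibre pools, and Azin1 is lowest in QSC fibre barcodes at 18.6 CPM.

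The counts past 2-fold were read against all genes with at least 20 UMIs in the pair of pools, a minimum that all 6 members passed in each comparison. From QSC to ASC fibre barcodes, 2 of 6 members were past 2-fold higher (Odc1, Azin1), where 26.9% of 6357 genes were, and 0 were past it lower, where 9.3% were. In the other barcodes 2 members were higher (Odc1, Sms) and 0 lower, against 19.4% and 23.3% of 10585 genes. In fibre over other barcodes of the ASC library, 3 were higher (Sms, Amd1, Oaz2) and 0 lower, against 14.7% and 47.5% of 10690 genes. In the QSC library 2 were higher (Sms, Amd1) and 1 lower (Azin1), against 17.4% and 53.0% of 5798 genes. These comparisons share pools, so their counts are not independent, and the members were selected with these contrasts in view.

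The members' median log2 ratio was 0.40 from QSC to ASC fibre barcodes, beside 0.30 over all genes tested, and -0.11 in the other barcodes, beside -0.09. In fibre over other barcodes it was 0.97 in the ASC library and 0.63 in the QSC library, beside -0.88 and -1.18 over all genes tested. Among genes with at least 20 UMIs in each pool the medians were -0.18, -0.28, -0.06 and 1.07 in the order of the comparisons above. The last comes from 1135 genes that had to be high enough for the shallow QSC fibre pool.

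**Figure D2:**
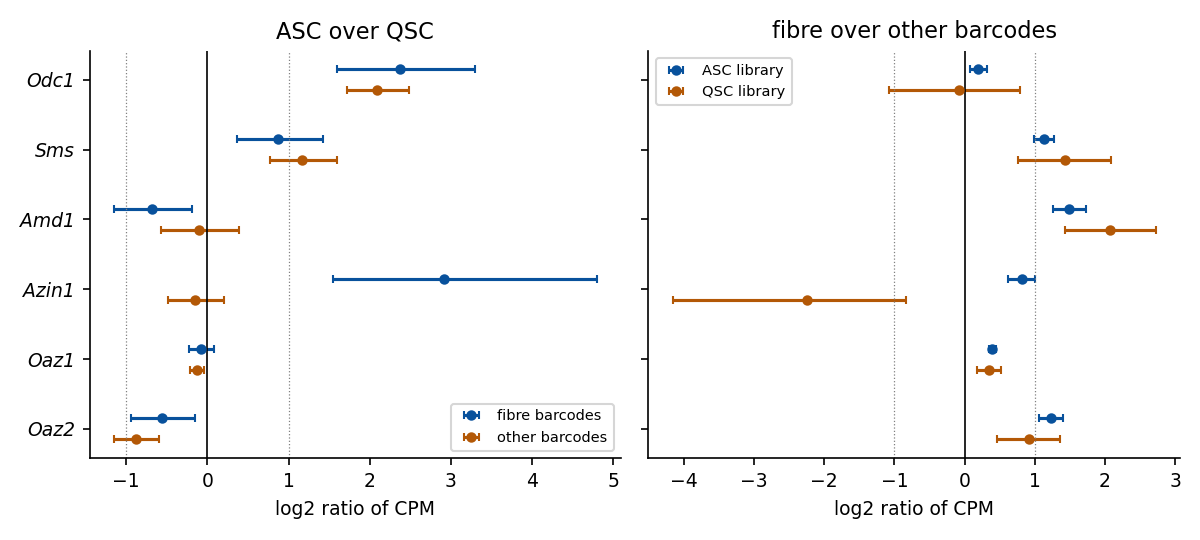
Log2 ratio of CPM for each gene, with ASC over QSC on the left (fibre and other barcodes) and fibre over other barcodes on the right (ASC and QSC libraries). Points are ratios of pooled UMIs, whiskers exact conditional binomial 95% intervals, the solid line is equality and dotted lines mark 2-fold. Azin1 lies on opposite sides of equality in the 2 libraries on the right, at 0.81 and -2.25.

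Ratios between members need no library total. Odc1 had 3.55 UMIs per 100 of Oaz1 (1.87 to 6.15) in QSC fibre, 4.79 (3.64 to 6.19) in QSC other, 19.4 (18.1 to 20.8) in ASC fibre and 22.3 (21.1 to 23.5) in ASC other barcodes. The ASC ratios lay far above the QSC ratios in both classes. Azin1 had 1.09 UMIs per 100 of Oaz1 (0.30 to 2.82) in QSC fibre barcodes and 8.64 (7.81 to 9.55) in ASC fibre barcodes, with 6.59 and 6.46 in the other barcodes, whose intervals overlap. Odc1 UMIs per 100 of Oaz2 went from 21.3 to 163.6 in fibre barcodes and from 42.7 to 335 in the others.

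To set depth aside, each barcode was thinned to 1200 UMIs, which left out 14 QSC fibre, 14 QSC other, 86 ASC fibre and 11 ASC other barcodes. Odc1 was then found in 8.89% of QSC fibre barcodes (3.92 to 16.8), 7.79% of QSC other (5.35 to 10.9), 30.5% of ASC fibre (27.4 to 33.7) and 18.7% of ASC other barcodes (15.5 to 22.4). At equal depth ASC fibre barcodes held Odc1 more often than the other ASC barcodes, by more than the pooled CPM differ. With each barcode given equal weight the log2 ratio of the class levels was 0.71, against 0.20 when deep barcodes count more.

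Sms was found in 15.6%, 5.78%, 26.7% and 12.4% of the QSC fibre, QSC other, ASC fibre and ASC other barcodes. Amd1 was found in 22.2%, 5.53%, 13.1% and 3.09% of the same pools, and Oaz2 in 25.6%, 16.3%, 21.8% and 10.2%. All these shares come from a single random thinning. Thinned to 800 UMIs, Amd1 was found in 18.3%, 3.90%, 8.64% and 5.48% of the pools. Its ASC other share was thus higher at the shallower depth and above its interval at 1200 UMIs (1.78 to 4.97). Azin1 was found in 0 of 90 QSC fibre barcodes, which allows a share at this depth of up to 3.33% by the floor of 3 counts and of up to 4.02% by the Clopper-Pearson interval, and in 9.05%, 16.2% and 11.2% of the other pools. Without thinning, 4 of 104 QSC fibre barcodes (3.85%) held an Azin1 UMI, and 2 of 104 (1.92%) did when thinned to 800 UMIs. Oaz1 was found in 76.1% to 84.4% of barcodes in all 4 pools. Without thinning, Odc1 was found in 11.5%, 12.4%, 52.7% and 59.5% of these pools, an order of the ASC classes that turns at equal depth. No class of barcodes here can be taken to lack these genes, so their background from free RNA was not measured. The median depths before thinning were 1830, 2228, 2892 and 7521 UMIs in the same order of pools.

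**Figure D3:**
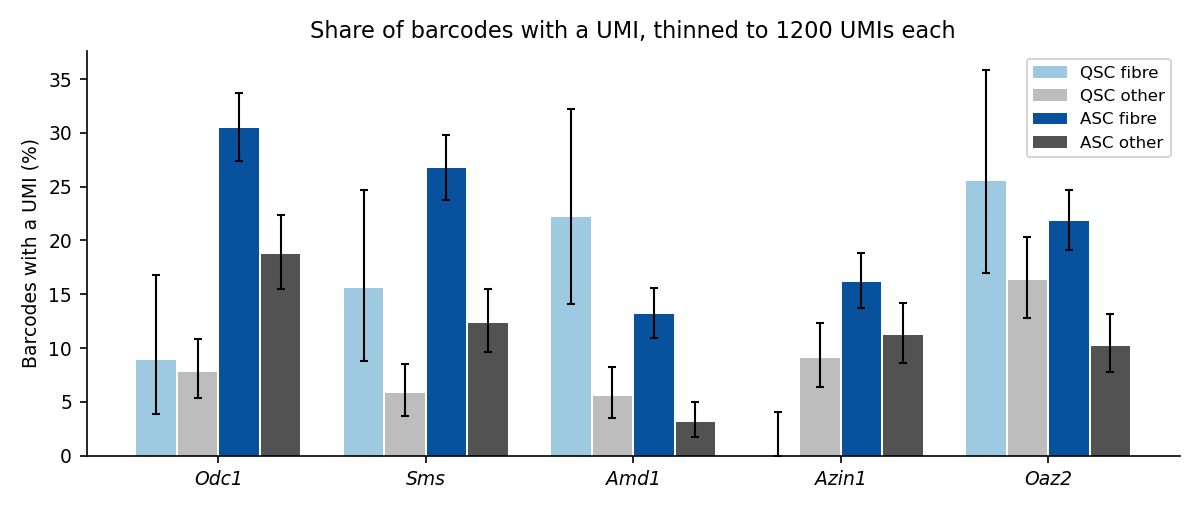
Share of barcodes with at least 1 UMI of a gene, in percent from 0, after thinning every barcode to 1200 UMIs, for the 5 members other than Oaz1. Bars are the 4 pools and whiskers Clopper-Pearson 95% intervals. Odc1 reaches 30.5% in ASC fibre barcodes against 18.7% in ASC other barcodes, and Azin1 is at 0 of 90 in QSC fibre barcodes.

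The members were thinly spread over barcodes. At 1200 UMIs, 187 of 853 ASC fibre barcodes had 1 Odc1 UMI, 73 had 2 or more and 593 had none, and the highest had 5. Variance over mean lay between 0.92 and 1.34 in every pool with a UMI of the gene, where random sampling of equal barcodes gives 1. In the unthinned ASC fibre pool a single barcode gave at most 3.63% of a member's UMIs (Oaz2). In the shallow QSC fibre pool a single barcode gave 1 of the 4 Azin1 UMIs and 15.4% of the Odc1 UMIs (2 of 13). Both Odc1 and Sms were found in 82 of the 853 barcodes (9.61%), where the product of the shares gives 8.15%. For Odc1 and Azin1 the values were 5.04% and 4.93%, and for Odc1 and Oaz1 25.2% and 25.2%. Counts this sparse give no reading of co-expression.

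Barcodes on either side of the fibre limit were then compared. In the ASC library, 17 barcodes took 4 to 5% of UMIs from the rule genes and 15 took 5 to 6%, while the QSC library had none from 4 to 7%. Odc1 stood at 272 CPM (244 to 301) in ASC barcodes with 2 to 5% and at 464 CPM (402 to 531) in those with 5 to 10%, and at 289 CPM (269 to 311) in those with 10 to 20%. Azin1 followed the same course, with 87.0, 232 and 125 CPM. The band just inside the limit held 176 barcodes with a median of 1956 UMIs and was the highest for both genes.

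Amd1 instead went up with the fibre share, from 56.3 CPM (44.3 to 70.5) at 2 to 5% to 85.5 CPM (60.5 to 117) at 5 to 10%, 125 CPM (112 to 140) at 10 to 20% and 263 CPM (147 to 433) in the 11 barcodes at 20% or more. In the QSC library Amd1 had 145 CPM (90.8 to 219) at 10 to 20% and 369 CPM (226 to 570) at 20% or more. Sms stood at 129, 277, 279 and 420 CPM in the same ASC bands, so it was higher from 5 to 10% than from 2 to 5% and then level up to 20%. Bands this wide do not place that rise at the limit itself.

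**Figure D4:**
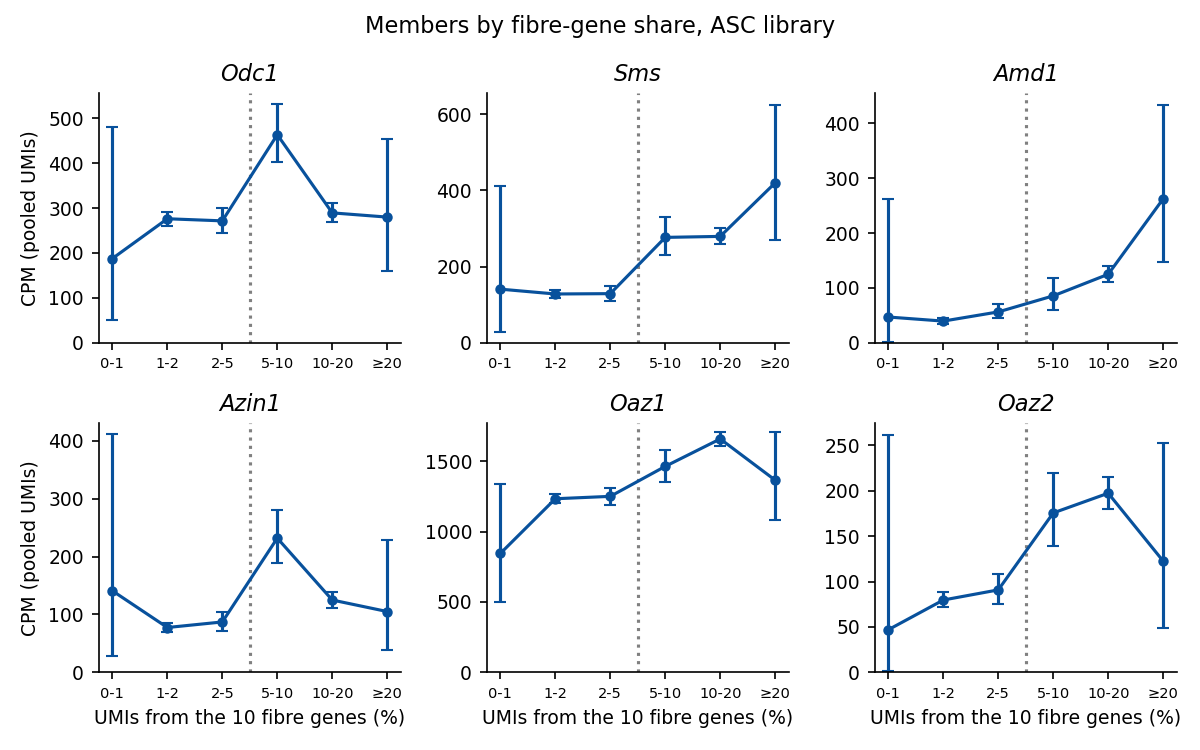
Level of each gene in CPM (linear axes from 0) in ASC barcodes grouped by the percent of their UMIs that came from the 10 fibre genes. Points are pooled levels, whiskers exact Poisson 95% intervals and the dotted line the 5% limit; the outermost groups hold 3 and 11 barcodes. Odc1 and Azin1 are highest at 5 to 10% (464 and 232 CPM), and Amd1 goes up to 263 CPM.

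Within the 939 ASC fibre barcodes, the 234 barcodes with the highest and the 234 with the lowest share of UMIs from a gene list were compared. The atrophy and denervation list (Mt3, Mt1, Mt2, Trim63, Fbxo32, Gadd45a, Chrna1, Runx1, Myog, Mss51) holds genes known to go up when muscle wastes or loses its nerve. Odc1 stood at 447 CPM in its highest and 205 CPM in its lowest barcodes, a log2 ratio of 1.12 (0.84 to 1.41). Azin1 stood at 174 and 95.3 CPM (0.86, 0.43 to 1.31) and Sms at 334 and 231 CPM (0.53, 0.24 to 0.83). Amd1 stood at 147 and 124 CPM, with overlapping intervals. The antizymes went the opposite way, with Oaz2 at 185 and 235 CPM (-0.35, -0.68 to -0.0095) and Oaz1 at 1508 and 1646 CPM (-0.13, -0.25 to -0.0065). The median depth of these groups was alike, at 2634 and 2648 UMIs. Without Mt1, Mt2 and Myog the log2 ratio was 0.78 for Odc1, 0.60 for Azin1, -0.51 for Oaz2 and 0.048 for Oaz1, the last with an interval that includes 0.

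The stretch and stress list (Ankrd1, Ankrd2, Csrp3, Xirp1, Hspb1, Cryab, Hspb7, Flnc), genes of mechanical load and protein damage, ordered the members differently. Amd1 stood at 72.5 CPM in the highest and 172 CPM in the lowest barcodes, a log2 ratio of -1.25 (-1.74 to -0.77). Azin1 went the opposite way, with 182 and 96.0 CPM (0.92, 0.50 to 1.36). Odc1 stood at 349 and 328 CPM, a log2 ratio of 0.09 (-0.17 to 0.35). Oaz1 had 1315 and 1794 CPM (-0.45, -0.57 to -0.33). This list took 4056 CPM of QSC fibre and 33230 CPM of ASC fibre barcodes, so it moved with the library as well, and its part in the values of Amd1 and Azin1 between libraries was not tested.

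The remaining orderings were by other lists, depth and shares. By the share of commitment and fusion genes (Myod1, Myog, Mymk, Mymx, Cdkn1a, Myh3, Myh8, Actc1) the log2 ratio was 0.44 for Odc1, 0.52 for Sms and 0.79 for Azin1. By depth, Odc1 had 279 CPM in the deepest and 414 CPM in the shallowest barcodes, and by mitochondrial share 349 and 238 CPM. By the fibre share itself Odc1 had 297 and 424 CPM, Azin1 114 and 219 CPM and Amd1 173 and 87.4 CPM in the highest and lowest barcodes. By immune markers Odc1 had 378 and 291 CPM. By nuclear-retained transcripts every member's interval included 0. By slow fibre genes those of Odc1, Oaz1 and Oaz2 did, and by early response genes those of Odc1, Sms, Amd1 and Azin1. In the commitment, slow fibre, nuclear-retained, early response and immune orderings all 234 barcodes of the lowest group had no UMI of the list, so its choice among barcodes at 0 is arbitrary.

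**Figure D5:**
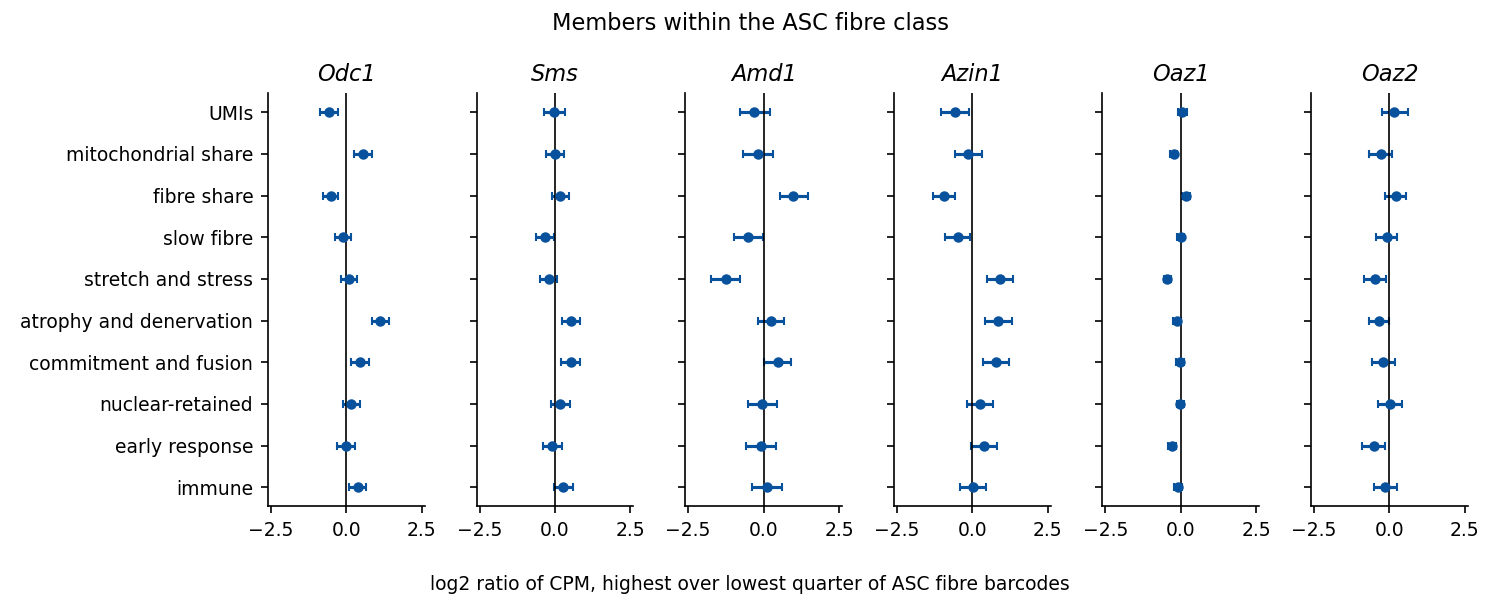
Log2 ratio of CPM of the 234 highest over the 234 lowest ASC fibre barcodes (a quartile each), ordered by the measure on the vertical axis, 1 panel per gene. Points are ratios of pooled UMIs, whiskers exact conditional binomial 95% intervals and the line equality. Odc1 is farthest from equality by the atrophy and denervation list (1.12), and Amd1 and Azin1 lie on opposite sides by the stretch and stress list (-1.25 and 0.92).

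The other class was then split by its UMIs of non-muscle markers. In the ASC library, 210 of 529 other barcodes had 3 or more UMIs of immune markers, a minimum that deep barcodes reach more easily (median 10470 UMIs). It does not identify immune cells, because ASC fibre barcodes also carried 321 CPM of these markers. In these 210 barcodes Odc1 stood at 327 CPM (307 to 347), Sms at 135, Amd1 at 49.6, Azin1 at 83.0 and Oaz2 at 64.6 CPM. Odc1 was above, and Oaz2 below, the levels of 275 and 82.0 CPM over all 529 other ASC barcodes, which include these 210. In the 114 other ASC barcodes below the minimum of 3 UMIs of non-muscle markers (29 genes of immune, fibroblast, endothelial, mural, Schwann and tenocyte cells), Odc1 stood at 247 CPM (212 to 288) and Oaz2 at 129 CPM (104 to 159). In the QSC library only 16 barcodes had 3 or more immune UMIs, with 0 UMIs of Odc1, Sms and Amd1, where 3 UMIs would be 91.8 CPM.

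The pathway around the members held 30 further genes, written with earlier results of these data known. From QSC to ASC fibre barcodes 17 of them could be read, of which 4 were past 2-fold higher (Sat1, Mtap, Mri1, Enoph1) and 3 lower (Amd2, Apip, Dhps), against 26.9% and 9.3% of all genes tested, with a median log2 ratio of 0.036. The intervals of 4 of these 7 included equality. Mtap had 47 UMIs in ASC and 0 in QSC fibre barcodes, and its place past 2-fold rests on the count of 0. Enoph1 had 1 UMI (log2 ratio 1.24, -1.34 to 6.58) and Mri1 4 UMIs (1.01, -0.39 to 2.91) in QSC fibre barcodes, and Dhps had a log2 ratio of -1.06 (-1.98 to 0.0039). In the other barcodes 8 of 25 were higher and 7 lower, against 19.4% and 23.3% of all genes. In fibre over other barcodes 3 of 24 were higher and 11 lower in the ASC library, against 14.7% and 47.5%, and 5 of 17 and 7 in the QSC library, against 17.4% and 53.0%. None of these counts is read as particular to the pathway.

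Spermidine synthase (Srm) sits between Odc1 and Sms. Its log2 ratio of ASC over QSC in fibre barcodes was 0.036 (-0.99 to 1.28), on 8 QSC UMIs. That interval lies below the interval of Odc1 (1.60 to 3.29) but includes the Sms value of 0.87. Srm stood at 37.3 CPM in QSC fibre, 53.8 in QSC other, 38.2 in ASC fibre and 251 CPM in ASC other barcodes. The ASC fibre level of Srm was thus below the other ASC level by a log2 ratio of -2.71 (-3.002 to -2.44). Smox, which oxidises spermine back to spermidine, was higher in fibre barcodes, with 65.3 CPM (14 UMIs) against 17.9 CPM in the QSC library and 42.9 against 15.1 CPM in the ASC library. The QSC log2 ratio of Smox was 1.86, and 0.80 relative to the median gene, where it was no longer beyond counting error. Sat1, which acetylates polyamines for export and breakdown, stood at 18.6, 292, 74.8 and 130 CPM in QSC fibre, QSC other, ASC fibre and ASC other barcodes.

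Among suppliers, Mat2a, which makes S-adenosylmethionine, stood at 69.9, 561, 133 and 177 CPM in the same pools, and its partner Mat2b at 149, 46.4, 107 and 43.3 CPM, higher in fibre barcodes of both libraries. The QSC log2 ratio of Mat2b was 1.68, and 0.62 relative to the median gene, where it was no longer beyond counting error. Oat, ornithine aminotransferase, stood at 130.5, 179, 74.2 and 73.2 CPM. Arg1 had UMIs in ASC other barcodes only (19), and Agmat none in any pool. All 4 transport genes were past 2-fold lower in ASC fibre than in ASC other barcodes, as were 47.5% of all genes tested, with Slc3a2 at 11.6 against 153 CPM. Eif5a, the factor that carries the spermidine-derived hypusine, stood at 420, 633, 755 and 1901 CPM, and its modifying enzyme Dohh at 46.6, 35.9, 88.8 and 94.8 CPM. Myc, known to drive Odc1 transcription, had 1 UMI in QSC fibre and 16 in ASC fibre barcodes, against 122 and 269 in the others (4.66, 5.32, 129 and 45.7 CPM).

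The promoters of Odc1 and Sms, which were both higher in the ASC library, are shown from the RefSeq promoter table (GRCm38.p6), which matched 5 of the 6 members. The bases printed are those before both the RefSeq and the GENCODE start. In Odc1, chr12:17544623-17544793 (plus strand), capitals mark GGGCGG or its reverse complement CCGCCC, found 3 times here and 4 times in the 300-base window from 250 bases before to 50 after the RefSeq start. Of 32851 promoters 35.7% hold that motif. In Sms, chrX:157492288-157492537 (minus strand), capitals mark CACGTG, 196 bases before the start, which 7.15% of promoters hold. Both strands were searched. The wider motif CANNTG, which includes CACGTG, is in 72.3% of promoters and not in the Odc1 window. A second Sms window in the table holds no CACGTG and 4 GGGCGG.
Odc1: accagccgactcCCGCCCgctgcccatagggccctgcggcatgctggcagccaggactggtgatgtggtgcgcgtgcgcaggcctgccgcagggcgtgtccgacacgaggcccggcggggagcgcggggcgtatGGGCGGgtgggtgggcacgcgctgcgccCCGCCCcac
Sms: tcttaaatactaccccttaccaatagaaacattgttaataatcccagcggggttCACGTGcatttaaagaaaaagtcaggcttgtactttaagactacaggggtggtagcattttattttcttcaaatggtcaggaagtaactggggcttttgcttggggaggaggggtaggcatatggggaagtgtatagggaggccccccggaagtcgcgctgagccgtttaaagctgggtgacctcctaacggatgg

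The letters are a description of these windows and mark no site of binding.

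The genes most like Odc1 and Sms were sought among 4759 genes with at least 200 UMIs over 5 pools (the ASC other barcodes split at 3 immune UMIs), by the root mean square difference of centred log2(CPM + 10). For Odc1 these were Ppa1, Mrps18b, Scx, Gtf2f2 and Txn1, with differences of 0.17 to 0.24. Scx and Gtf2f2 stood at 4.66 CPM in QSC fibre barcodes, below the floor of 14.0 CPM, and at 3.17 CPM in QSC other barcodes. Their likeness in the QSC pools rests largely on the added 10 CPM. Ppa1, a pyrophosphatase, stood at 32.6 CPM in QSC fibre and 132 CPM in ASC fibre barcodes. For Sms these were Mrpl44, Nme6, Itgb1bp1, Cox19 and Bves, with differences of 0.068 to 0.15. Mrpl44, a protein of the mitochondrial ribosome, stood at 37.3, 10.6, 70.5, 34.3 and 25.9 CPM in QSC fibre, QSC other, ASC fibre, ASC other with immune UMIs and the remaining ASC barcodes.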

How the data were processed

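Sorted cells of 1 QSC and 1 ASC library were counted by droplet-based 3' single-cell RNA-seq (10x v2). The deposited values are raw counts, whole UMIs per gene and barcode, from Cell Ranger 6.0.2 per the file headers. The submitters' processing notes name Cell Ranger 7.1.0, Seurat 4.1.0, R 4.1.2 and build mm10. Strand handling is not given in the sources used here.

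The 6 members, the marker lists and the pathway lists were chosen with earlier results of these data known. UMIs were summed over the barcodes of a class and given as CPM with exact Poisson 95% intervals, ratios with exact conditional binomial intervals and shares with Clopper-Pearson intervals (numpy 2.4.6, scipy 1.17.1, pandas 2.3.3, matplotlib 3.10.9), tested on simulated data. With 1 library per group there is no replicate check and no p-value. TMM factors came from edgeR 4.0.16 on pooled counts as a scaling only. Doublets were not removed. The named genes were the members, up to 3 of the most counted genes per pathway list (with further genes of these lists named after their values were seen), and the 5 genes most like Odc1 and Sms. The study's limit of 1% mitochondrial UMIs, which leaves 1 QSC barcode in the other class, was used as an alternative. Of the 32285 features, 32158 carry an identifier in GENCODE M21.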

Additional observations from a re-analysis of the deposited data

Results flagged for a closer look

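In these genes the classes or libraries moved in opposite directions, each beyond counting error, and the difference between the effects was not tested. Azin1 had a log2 ratio of fibre over other barcodes of 0.81 in the ASC library and -2.25 in the QSC library, the latter on 4 UMIs in fibre barcodes. Dhps, the first enzyme of the hypusine modification, had 74 and 219 UMIs in ASC fibre and other barcodes (log2 ratio -0.60) and 11 and 21 in the QSC library (1.21, with a lower limit of 0.011). Relative to the median gene the QSC value of Dhps was 0.14, which is not beyond counting error. Sat1 had a log2 ratio of ASC over QSC of 2.00 in fibre barcodes, on 4 QSC UMIs, and -1.17 in the others. Mat2a had 0.93 in fibre barcodes, on 15 QSC UMIs, and -1.66 in the others. Each of these contrasts includes the QSC fibre pool, the shallowest of the 4.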

How the results depend on the processing

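Of 292 alternative values of the members' log2 ratios, 249 stayed within the interval of the reported value, 37 left it in the same direction or from a value that did not differ beyond counting error, and 6 reversed. The cause was not tested for any of them. The ratio of Odc1 in fibre over other ASC barcodes was -0.39 under the 1% mitochondrial limit (reversed), 0.0049 with a fibre limit of 10%, 0.36 with totals free of rule and mitochondrial genes, 0.73 under TMM scaling, 0.71 with equal weight per barcode, 0.67 without the deepest 5% of barcodes and 0.36 without barcodes with non-muscle UMIs. The same ratio for Sms was 1.29, 1.67, 1.37, 1.48 and 0.97 under the last 5 of these settings. For Azin1 it was 0.46 with the fibre limit of 10%, 1.35 under TMM scaling and 1.09 without non-muscle barcodes, and for Amd1 2.03 and 1.85 under the last pair. For Oaz2 it was 1.77 under TMM scaling, 0.99 with equal weight and 0.99 without the deepest barcodes, and 0.56 without non-muscle barcodes. For Oaz1 it was 0.53 under the 1% limit, 0.55 with reduced totals, 0.45 relative to the median gene, 0.93 under TMM scaling and 0.31 without non-muscle barcodes.

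In the QSC library, fibre over other, values relative to the median gene were -1.15 for Odc1, 0.37 for Sms, 1.01 for Amd1, -0.72 for Oaz1 and -0.15 for Oaz2, the last pair reversed, and Oaz1 was 0.53 with reduced totals and 0.53 under TMM scaling. For ASC over QSC in other barcodes, Oaz1 was -0.21 under a 5% mitochondrial limit and reversed to 0.16 relative to the median gene, 0.20 under TMM scaling and 0.011 without non-muscle barcodes. There Oaz2 was -0.60, -0.56 and -0.31 under the same 3 settings, Odc1 1.65 without the deepest barcodes and Amd1 -0.75 without non-muscle barcodes. In fibre barcodes Oaz1 was 0.10 relative to the median gene. For ASC over QSC in other barcodes the number of members past 2-fold fell from 2 to 1 with equal weight and without the deepest barcodes, and was 3 under the 5% limit. In fibre barcodes it went from 2 to 3 relative to the median gene, under TMM scaling and without the deepest barcodes. For fibre over other ASC barcodes it went from 3 to 2 with equal weight, without the deepest barcodes and without non-muscle barcodes, and to 4 under TMM scaling, and for QSC barcodes from 3 to 4 with reduced totals and under TMM scaling. The ratio of Oaz1 between highest and lowest ASC fibre barcodes by the atrophy and denervation list was 0.048 without Mt1, Mt2 and Myog (reversed, added after seeing the data).

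Under the 1% limit (QSC other, 1 barcode) and the minimum of 1000 genes (QSC fibre, 10 barcodes) the comparisons with those pools were not run. With a pool at 0 set to 3 UMIs, an alternative added after seeing the data, 18.4% in place of 26.9% of genes were past 2-fold higher from QSC to ASC fibre barcodes. No paired analysis was possible because each group had 1 library. Depth limits the QSC fibre pool above all, with 4 UMIs of Azin1 and 13 of Odc1.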
